A study of Homo sapiens with 26 samples.

Results

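Cytosolic LOV-BirA is the version of the light-activated biotin ligase that carries no domain for a membrane, so that it can label ribosomes throughout the cytosol of HEK293T cells, a human embryonic kidney line. The question here was which genes departed from no enrichment when footprints of the pulled-down ribosomes were set against the total input of the same lysate, and whether the replicates gave the same answer. Genes were taken if their entry named 1 gene and held at least 64 footprints in its coding sequence in both cytosol total inputs, which left 7162 of 57770 genes. Each of 2 lysates gave 1 library of total input and 1 of streptavidin pulldown, 4 in all, and the same study holds matching sets with LOV-BirA at the ER and at the outer mitochondrial membrane (mito), which brings it to 12 libraries. In all cells RPL29, part of the large ribosomal subunit, ended in an Avi tag, the peptide that BirA biotinylates, which was added by knock-in. Knock-in lines were isolated as single-cell clones, and the sources used here do not say whether the ER, mito and cytosol lines came from the same clone. LOV-BirA was added by lentivirus under the EF1α promoter for the cytosol and mito lines and under the SFFV promoter for the ER line, and the infected cells were sorted as polyclonal lines. By the study's protocol cells received cycloheximide (CHX), an inhibitor of translation elongation, then biotin and a short pulse of blue light.

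A ribosome shields a short stretch of mRNA from nuclease, and this stretch, the footprint, reports which codon was being read. Footprints of cytosolic ribosomes lie mostly in coding sequences, with some in 5′ UTRs, where upstream open reading frames and scanning or initiating ribosomes are found. Mitochondria keep their own genome and their own ribosomes inside the organelle, and RPL29 belongs to the cytosolic ribosome only. Messages for secreted and membrane proteins are read by cytosolic ribosomes that dock on the ER, whereas most others are read by free ribosomes.

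Estimated counts in coding sequences totalled 15820989 and 12335749 in the total input and pulldown of replicate 1 and 4485509 and 10912039 in those of replicate 2, so total input 2 was the shallowest of the 4 libraries. The fractions of replicate 1 came from different sequencing runs, according to the file headers, while both fractions of replicate 2 came from 1 run. Replicate 2 alone is therefore the within-run value. Nothing in the labels says whether the lysates came from separate cultures. Each of the 6 lysates had its own term in 1 fit of the 3 locations. The p-values therefore rest on how far pulldown over total input differed between the 2 lysates of a location. Enrichment below is the log2 ratio of pulldown to total input in CPM, footprints scaled to the library's coding total, and fitted enrichment is its value from edgeR's quasi-likelihood fit with a term for each lysate. A gene is said to have risen or fallen if its adjusted p (Benjamini-Hochberg over all 7162 genes) was below 0.05.

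Most genes sat close to no enrichment in the cytosolic pulldown. In all, 145 genes rose, 2.02% of those tested, and 427 fell, 5.96% of those tested. With the spread taken from the 4 cytosol libraries alone 38 rose and 298 fell. Falls were the larger changes. Of 420 nuclear genes that fell, 122 had a fitted log2 enrichment below -1, whereas the largest rise was 0.77 and 41 rises exceeded 0.5. The remaining 7 falls were the measured genes of the mitochondrial genome.

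All 572 called genes lay on the same side of the median gene in both replicates, which a call from both replicates favours. Over all genes the replicates resembled each other far less. The median log2 enrichment was 0.01 in replicate 1 and 0.02 in replicate 2, and 59.8% of genes lay on the same side of these medians in both. Pearson's r between the replicates across genes was 0.61 and Spearman's rho 0.31, and r was 0.54 without the mitochondrial genome. The SD of the difference between replicates was 0.36, against SDs across genes of 0.38 and 0.43. The same measure gave r of 0.98 for ER LOV-BirA and 0.86 for mito LOV-BirA, where the enrichments span a wider range. Genes are not independent replicates, and these values are descriptions that share the libraries. In the plot of replicate 2 against replicate 1 the called falls run down the diagonal and the other genes form a round cloud at the origin.

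**Figure D1:**
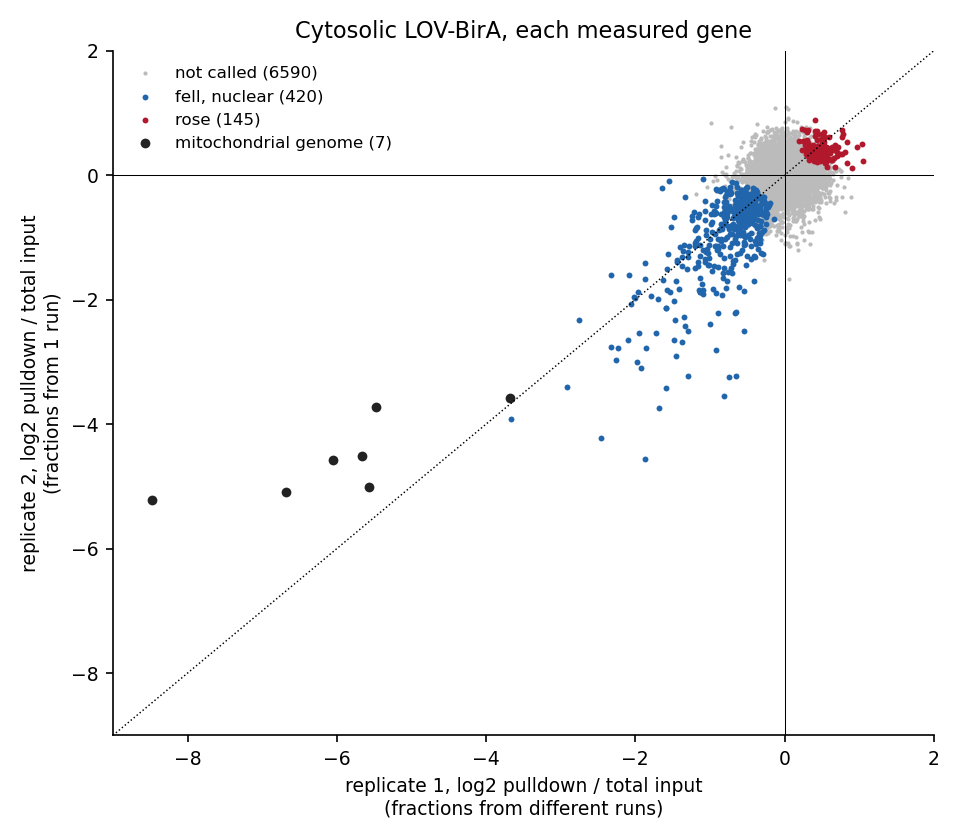
Log2 pulldown over total input of each of the 7162 measured genes in replicate 1 (x axis, fractions from different runs) and replicate 2 (y axis, fractions from 1 run), with genes that fell in blue, genes that rose in red and the mitochondrial genome in black. The dotted line marks equal values; the 7 mitochondrial genes lie below -3.5 in both replicates and the 145 rises lie within about 1 of the origin.

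The genes of the mitochondrial genome fell furthest. Of 13 protein genes, 7 reached the minimum, and all 7 fell in both replicates. MT-ND3, a subunit of complex I, held 115 CPM in total input 1, 0.324 in pulldown 1, 37.7 in total input 2 and 1.01 in pulldown 2, with 4 and 11 footprints left in the pulldowns. Its fitted log2 enrichment was -6.84 (SE 0.35, adjusted p = 5.82e-10), a 114-fold fall. MT-ND5 and MT-CYB, the cytochrome b of complex III, were the most abundant. MT-ND5 went from 370 to 3.62 CPM in replicate 1 and from 137 to 4.03 in replicate 2. MT-CYB went from 443 to 8.72 CPM and from 204 to 8.90. In each pair the pulldown lay far below its total input, and no pulldown value overlapped a total input value.

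The complex I subunits MT-ND1 and MT-ND4 had fitted log2 enrichments of -5.41 and -5.34, and MT-CYB and MT-ND5 had -5.14 and -5.98. The complex IV subunits fell least of the 7. MT-CO3 was at -4.68 (214 to 4.80 CPM and 81.1 to 6.15), and MT-CO1, which was counted over only 31 nt, was at -3.64 (41.4 to 3.22 CPM and 21.2 to 1.76). Together the mitochondrial genome took 0.144% and 0.0588% of coding footprints in the total inputs and 0.00263% and 0.00274% in the pulldowns. The residual share was thus alike in the pulldowns although the total inputs differed, and the share was 54.8-fold lower in replicate 1 and 21.5-fold lower in replicate 2. At the ER the same share was 51.4- and 27.1-fold lower.

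**Figure D2:**
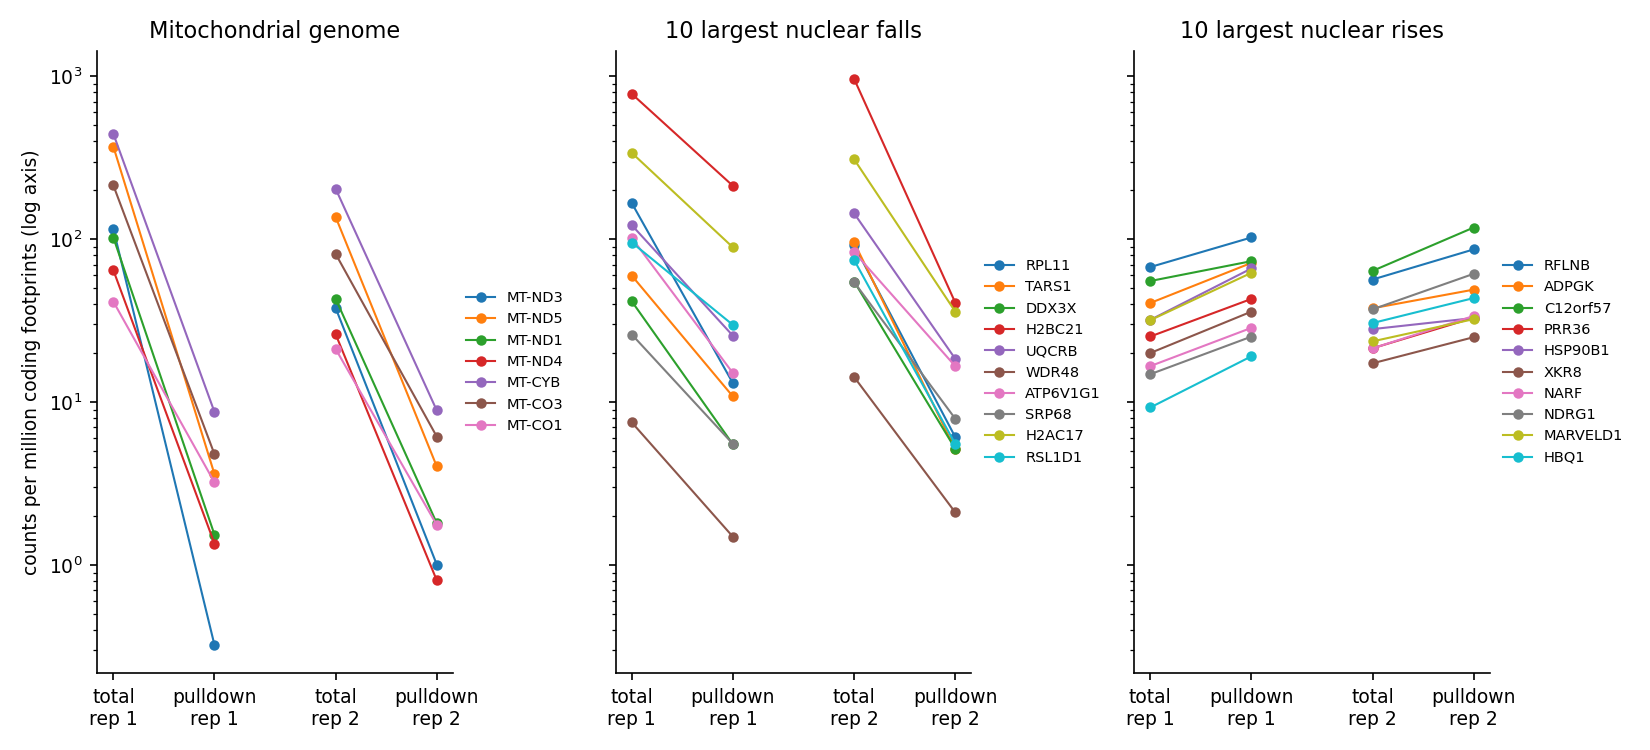
CPM of coding footprints (log axis) in the total input and pulldown of each cytosol replicate for the 7 measured genes of the mitochondrial genome, the 10 largest nuclear falls and the 10 largest nuclear rises, 1 line per gene and replicate. Mitochondrial genes drop to at most 8.90 CPM in the pulldowns, whereas the largest rises are short steps such as 9.28 to 19.1 CPM for HBQ1.

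The largest falls of nuclear genes were RPL11, TARS1, DDX3X, H2BC21, UQCRB, WDR48, ATP6V1G1, SRP68, H2AC17 and RSL1D1. They include a ribosomal protein of the large subunit (RPL11), threonyl-tRNA synthetase (TARS1), an RNA helicase (DDX3X), histones H2B and H2A, a complex III subunit (UQCRB), a partner of deubiquitinases (WDR48), a subunit of the vacuolar proton pump (ATP6V1G1), a subunit of the signal recognition particle (SRP68) and a nucleolar protein (RSL1D1). RPL11 (chr1:23691742-23696835, plus strand, GRCh38) held 166 CPM in total input 1, 13.1 in pulldown 1, 91.8 in total input 2 and 6.11 in pulldown 2. Its fitted log2 enrichment was -3.76 (SE 0.15, adjusted p = 3.33e-11), a 13.6-fold fall. TARS1 went from 59.8 to 10.8 CPM and from 95.5 to 5.13, with a fitted log2 enrichment of -3.21 (SE 0.26, adjusted p = 1.53e-07). DDX3X went from 41.6 to 5.51 CPM and from 55.0 to 5.18, a fitted log2 enrichment of -3.14. In all 3 genes both pulldowns lay below both total inputs.

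H2BC21 was the most abundant of the 10 and the least even. It went from 780 to 213 CPM in replicate 1 and from 962 to 40.8 in replicate 2, log2 enrichments of -1.87 and -4.56. H2AC17 went from 339 to 89.2 CPM and from 309 to 36.01. UQCRB went from 122 to 25.6 CPM and from 144 to 18.5. ATP6V1G1, at -2.75 and -2.32, was the one gene of the 10 that was lower in replicate 1. WDR48 had the lowest counts, 7.51 to 1.49 CPM and 14.3 to 2.11. SRP68 and RSL1D1 had fitted log2 enrichments of -2.52 and -2.44, and RSL1D1 again was more uneven, at -1.68 and -3.75. The 10 genes belong to several complexes and compartments, and all of them had been counted over at most 378 nt.

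The files count coding footprints only at positions that are coding in some transcript, untranslated in none and uniquely mappable, so the counted window can be a small piece of a gene's coding sequence. In length the window came to a median 86.3% of the longest coding sequence over all genes. It came to 84.8% for the genes that rose, but 40.5% for the nuclear genes that fell. These are ratios of lengths, and a window can hold positions that are coding in other transcripts only. The share of that sequence covered can thus be lower, as for RPL11, with a ratio of 25.1% but 6 of 537 canonical positions in the rebuilt window. Of 65 genes with a window under 75 nt, 28 fell (43.1%), and the fraction declined with each step in length. It was 36.4% of 198 genes from 75 to under 150 nt, 21.4% of 635 up to 300 nt, 8.68% of 1268 up to 600 nt and 2.19% of 1828 up to 1200 nt. Of 3168 genes with longer windows 1.29% fell. The rises showed no such slope, with between 1.52% and 3.23% of genes in each bin. Replicate values resembled each other more in short windows: among nuclear genes with a window under 600 nt, r was 0.69 and rho 0.50, against 0.35 and 0.19 in longer ones.

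Short windows that held the start codon had low values. Windows rebuilt from GENCODE 44 had exactly the counted length in 2519 of 7160 annotated genes. Of these windows 2266 held the start codon of the canonical transcript and 253 did not. Equal length does not show that the positions were the same, and unique mapping was not part of the rebuild. Under 300 nt, 46 of 171 windows with the start codon fell (26.9%), with median log2 enrichments of -0.18 and -0.30 in the 2 replicates. Of 36 windows of that size without it, 3 fell (8.33%), with medians of 0.06 and 0.17. The windows with and without the start codon thus lay on opposite sides of no enrichment in both replicates. The 36 windows are few, and the genes of both kinds differ in other ways too.

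The share of the window near the start gave the same order. Where more than 20% of the rebuilt window lay within 45 nt of the start codon, 25 of 81 genes fell, with medians of -0.17 and -0.41. At 10 to 20% it was 51 of 321, with medians of -0.06 and -0.10. Where no position lay that close, 2 of 180 fell, with medians of 0.07 and 0.20. Over all lengths, 113 of the 2266 windows with the start codon fell (4.99%) and 6 of the 253 without it (2.37%), both below the 5.96% of all genes. From 600 to 1200 nt the 656 windows with the start codon had medians of 0.06 and 0.02, so the low values were limited to the shorter windows.

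Footprints elsewhere in the same genes were mostly not low. Exon positions that the files place in no coding sequence or UTR, such as those on which transcripts disagree, gave a second readout of each gene that was not used for the calls. For 296 nuclear falls with at least 64 such footprints in both total inputs, the median log2 enrichment was -0.68 and -0.86 inside the window and 0.03 and 0.18 outside it. The window was the lower in both replicates in 278 of the 296, and in 98 of 98 genes whose fitted value lay below -1. The genes were chosen for low values in the window, so only the outside values are free of that choice.

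RPL11 shows the contrast most plainly. Outside the window it held 1830 and 1908 CPM in total input and pulldown of replicate 1 and 1605 and 1622 in those of replicate 2, log2 enrichments of 0.06 and 0.02 against -3.67 and -3.91 inside it. Its 135-nt window, as rebuilt, overlaps the canonical coding sequence at positions 1 to 6 only. TARS1 had 726 and 712 CPM outside the window in replicate 1 and 705 and 846 in replicate 2. DDX3X had 907 and 889, and 591 and 685. Across the largest falls with outside counts, these log2 values ran from -0.27 (UQCRB, replicate 1) to 0.40 (SRP68, replicate 2). In the right panel of the plot of windows every open symbol lies near 0 and every filled symbol below -1.5.

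**Figure D3:**
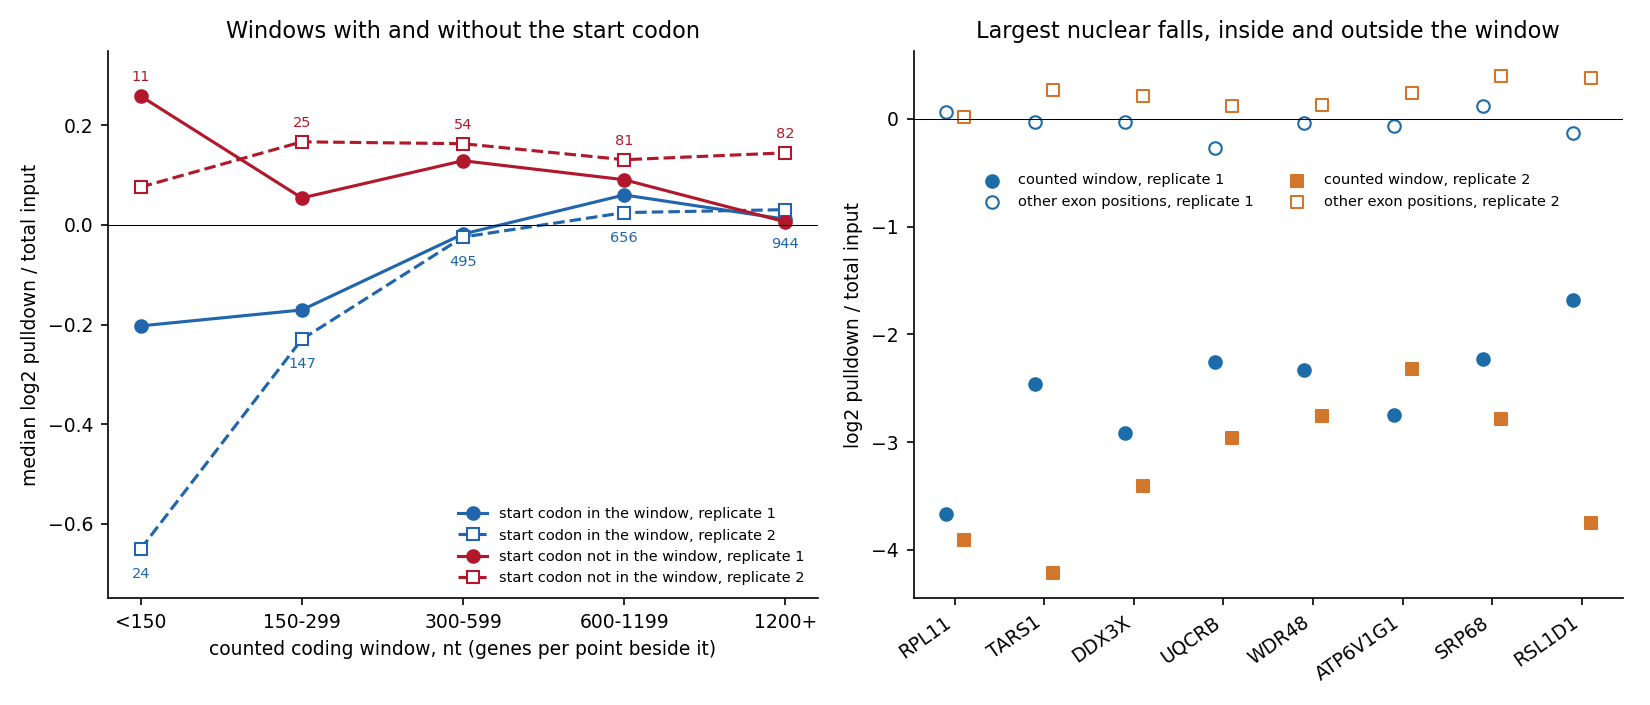
Left: median log2 pulldown over total input in each replicate for windows rebuilt at the counted length, with (blue) and without (red) the start codon. They are split by window length in nt, with the number of genes beside each point. Right: log2 pulldown over total input of 8 of the 10 largest nuclear falls inside the counted window (filled) and at other exon positions (open). Windows under 300 nt with the start codon lie below 0 in both replicates and those without it above 0, and the 8 genes lie between -0.27 and 0.40 outside the window.

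The first 30 coding bases are shown for 4 genes whose window was rebuilt at the counted length. It overlaps the canonical coding sequence from the start codon on, so these bases were part of the rebuilt window. The rest of each window is coding in other transcripts only, and the files do not divide the footprints between these portions. TARS1 and WDR48 are among the largest falls, and NAPA, a factor that recycles SNARE complexes, and SAP30BP, a nuclear factor in splicing and transcription, were chosen after their values were seen. The start codon is in capitals, and the bases and positions are from GRCh38 with GENCODE 44. TARS1 lies at chr5:33441087-33441116 on the plus strand, WDR48 at chr3:39052026-39052055 on the plus strand, NAPA at chr19:47514911-47514940 on the minus strand and SAP30BP at chr17:75667373-75667402 on the plus strand, each within 1 exon.
TARS1: ATGtttgaggagaaggccagcagtccttca
WDR48: ATGgcggcccatcaccggcagaacacagca
NAPA: ATGgacaattccgggaaggaagcggaggcg
SAP30BP: ATGgcggggaagaagaatgttctgtcgtct

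The positions given here are those of the rebuilt windows. The TARS1 window of 219 nt holds positions 1 to 57 of a canonical coding sequence of 2172 nt. The WDR48 window of 87 nt holds positions 1 to 48 of 2034 nt. The NAPA window of 213 nt holds positions 1 to 98 of 888 nt, and NAPA went from 31.8 to 7.84 CPM in replicate 1 and from 37.1 to 9.57 in replicate 2. Outside that window NAPA went the other way, from 171 to 221 CPM and from 165 to 207. The SAP30BP window of 277 nt holds positions 1 to 106 of 927 nt, and SAP30BP went from 24.3 to 8.65 and from 31.4 to 7.76 CPM, against 101 to 102 and 124 to 129 outside. The fitted log2 enrichments in the window were -1.99 (SE 0.16) for NAPA and -1.72 (SE 0.19) for SAP30BP.

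Footprints in 5′ UTRs were depleted from the cytosolic pulldown as well. They made up 9.33% and 12.6% of the footprints assigned to a region in the total inputs and 5.15% and 5.27% in the pulldowns, 1.81-fold lower in replicate 1 and 2.39-fold lower in replicate 2. The share in 3′ UTRs, which is small throughout, was 1.86- and 1.94-fold lower. With 2 pairs no permutation test of these shares can pass 0.05. The loss was of similar size at the ER (2.01- and 1.84-fold) and smaller at mito (1.32- and 1.38-fold).

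Gene by gene, 2033 genes held at least 64 footprints in their 5′ UTR in both total inputs. Their median log2 enrichment there was -1.03 in replicate 1 and -1.53 in replicate 2, and 1930 of them lay below 0 in both. The immediate early transcription factor JUN had some of the densest 5′ UTR signal, 407 CPM in total input 1, 283 in pulldown 1, 1065 in total input 2 and 583 in pulldown 2. Its coding sequence did not follow, with log2 enrichments of 0.24 and 0.19. DPP9, a cytosolic dipeptidyl peptidase, lost more, from 702 to 70.4 CPM and from 635 to 93.1 in the 5′ UTR, while its coding values were 0.14 and -0.16. RHOA, a small GTPase of the actin cytoskeleton, lost signal in both regions, at -2.63 and -2.65 in the 5′ UTR and -0.80 and -0.79 in the coding window. JUN, DPP9 and RHOA were picked for their 5′ UTR footprints after the values were seen.

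Only 9 of the 2033 genes lay above 0 in both replicates in their 5′ UTR: ABCA3, CREB3, PDE7A, EEF2K, LDB1, SAP30L, MARCHF5, PPP6R2 and CSK. ABCA3, a lipid transporter, went from 28.7 to 36.2 CPM and from 24.1 to 36.6, while its coding window lay at -0.36 and -0.72. EEF2K, the kinase of elongation factor 2, went from 11.99 to 16.2 and from 30.3 to 35.3 CPM. These changes are small and were not tested.

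The largest rises were HBQ1, MARVELD1, NDRG1, NARF, XKR8, HSP90B1, PRR36, C12orf57, ADPGK and RFLNB. HBQ1, a globin of the alpha cluster, held 9.28 CPM in total input 1, 19.1 in pulldown 1, 30.6 in total input 2 and 43.6 in pulldown 2, with a fitted log2 enrichment of 0.77 (SE 0.17, adjusted p = 0.00944). Its total inputs differed more from each other than either did from its pulldown. MARVELD1, a membrane protein, went from 31.9 to 62.2 CPM and from 23.6 to 32.4, a fitted log2 enrichment of 0.76 (SE 0.14). NDRG1, a gene induced by stress and hypoxia, was the most even of those above 0.7, at 0.77 and 0.72. HSP90B1, the HSP90 chaperone of the ER lumen, rested mainly on replicate 1, at 1.05 against 0.23.

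C12orf57 was the only one of the 10 with a clearly higher value in replicate 2, at 0.40 and 0.88. Outside the window the rises were mostly not high. For 67 of the 145 with at least 64 outside footprints in both total inputs, the median log2 enrichment there was -0.07 and -0.16. Of the 10 largest, 4 were below 0 outside in both replicates, with -0.55 and -0.48 for NARF, -1.31 and -1.67 for C12orf57, -0.26 and -0.44 for ADPGK and -0.13 and -0.10 for HSP90B1. NDRG1 was at -0.28 and 0.06, and the other 5 had too few footprints there. The rises with the most footprints were C1QBP, a mitochondrial matrix protein, CKB, a cytosolic creatine kinase, and TLN1, the integrin adaptor talin. C1QBP went from 1665 to 2338 CPM and from 871 to 1038, a fitted log2 enrichment of 0.37 (SE 0.09). CKB was at 0.37 and TLN1 at 0.34, a 1.27-fold rise over a window of 7587 nt. Between replicates 1 and 2, TLN1 gave 0.39 and 0.29 and CKB 0.54 and 0.19. All 3 changes were close in size to the SD of the difference between replicates.

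RPL29 itself, whose product carries the tag, fell. It held 265 CPM in total input 1, 194 in pulldown 1, 303 in total input 2 and 224 in pulldown 2, so both pulldowns lay below both total inputs. The fitted log2 enrichment was -0.44 (SE 0.10, adjusted p = 0.0112). Outside its window the log2 enrichments were -0.11 and -0.27.

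Ribosomal proteins fell often, as did genes with short windows in general. Of 41 measured genes of the large subunit, 16 fell and 3 rose, and of 28 of the small subunit 10 fell and 2 rose, against 5.96% and 2.02% of all genes. The medians were -0.10 and -0.19 for the large and -0.10 and -0.27 for the small subunit. Their counted windows were short, with medians of 111 and 131 nt. Of all 198 genes with windows from 75 to under 150 nt, 36.4% fell. That lies near the 39.0% of the large and the 35.7% of the small subunit. Ribosomal protein genes have many processed pseudogenes, and positions shared with a copy elsewhere were masked by the authors. None had a window of at least 600 nt. After RPL11, the largest falls of the large subunit were RPL41 (fitted log2 enrichment -1.84), RPL23 (-1.20) and RPL31 (-1.15). RPL41, the shortest ribosomal protein, went from 1161 to 273 CPM and from 1540 to 508. In the small subunit RPS2 went from 290 to 72.04 CPM and from 727 to 186, a fitted log2 enrichment of -1.99, and it was followed by RPS25 (-1.83), RPS27 (-1.39) and RPS21 (-1.17). RPS2 was higher outside the window, at 0.82 and 0.43. RPS23 had the most footprints of any ribosomal protein gene that fell, at a fitted -0.47. Over 29 large-subunit and 16 small-subunit genes with outside counts the medians there were -0.06 and -0.22, and -0.01 and -0.03.

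Among other genes of the translation apparatus, 4 of 19 cytosolic tRNA synthetases fell (21.1%, against 5.96% of all genes) and none rose. After TARS1 these were QARS1 (fitted log2 enrichment -1.88), RARS1 (-0.94) and IARS1 (-0.36), the glutaminyl, arginyl and isoleucyl enzymes. QARS1 and RARS1 were above or at 0 outside the window, at 0.28 and 0.16 and at 0.00 and 0.21. The family's median was -0.13 in both replicates, but the 9 members with windows of at least 600 nt had -0.06 and 0.07 and no call. Of 37 ribosome biogenesis genes 3 fell (8.11%, against 5.96% of all genes) and none rose. FBL, the methyltransferase fibrillarin, went from 571 to 248 CPM and from 660 to 234.5, a fitted log2 enrichment of -1.35, and lay at 0.49 and 0.29 outside its window. NOP16 was at -0.39. UTP20, a large component of the small-subunit processome, was at -0.35 over a window of 8358 nt. Ribosome biogenesis was the family of this group whose long-windowed members were also low in both replicates, at -0.11 and -0.08 over 29 genes. Of these 29 genes 1 fell.

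Replication-dependent histones were low in both replicates but by unlike amounts. Of 38 measured genes, 16 fell (42.1%, against 5.96% of all genes) and 2 rose (5.26%, against 2.02%). The medians were -0.40 in replicate 1 and -0.10 in replicate 2. Their median window was 212 nt, and 21.4% of all genes from 150 to under 300 nt fell. H3C2, an H3 gene, was the called gene with the most footprints, 5942 and 4396 CPM in replicate 1 and 8975 and 5894 in replicate 2, a fitted log2 enrichment of -0.52 (SE 0.08). H2AC11 went from 1619 to 883 CPM and from 2029 to 1103, with nearly equal log2 enrichments of -0.87 and -0.88. H2BC26 and H2AC20 were at -2.36 and -1.64, counted over 87 and 24 nt. Histone genes are near-identical copies that could be counted only at positions that differ between them, so values of single members are uncertain. None of the 10 variant histone genes, which are single genes, rose or fell.

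Proteasome genes had a median near that of all genes but several low members. Of 35 proteasome genes 9 fell (25.7%, against 5.96% of all genes) and none rose, with medians of 0.01 and 0.01. Their median window was 469 nt, and 8.68% of all genes from 300 to under 600 nt fell. PSMG1, an assembly chaperone, went from 81.8 to 27.1 CPM and from 79.3 to 18.0, a fitted log2 enrichment of -1.84. PSMD7 (-1.46), PSMD12 (-1.13) and PSMA3 (-0.95) followed, and outside their windows the 4 genes lay between -0.13 and 0.47. The 14 members with long windows had 1 fall and medians of 0.07 and 0.04. Actin and Arp2/3 genes had low medians in both replicates, -0.17 and -0.14 over 13 genes. Of these 13 genes 3 fell (23.1%), and the family's median window was 465 nt. ACTB, cytoplasmic beta-actin, fell most, from 1112 to 537 CPM and from 485 to 263 over a window of 103 nt. ACTB was at 0.55 and 0.10 outside it. ARPC2 and ARPC5, subunits of the complex that branches actin filaments, were at -0.36 and -0.34.

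Nuclear genes for mitochondrial proteins were not a class apart. Of 705 measured, 16 rose (2.27%) and 42 fell (5.96%), with medians of 0.03 and 0.02. Subunits of the respiratory chain held several of the falls. Of 27 complex I subunits 7 fell and none rose, with medians of -0.18 and -0.13 and a median window of 231 nt. NDUFS7, an iron-sulfur subunit, went from 19.8 to 6.59 CPM and from 22.4 to 2.102, a fitted log2 enrichment of -2.24, but was at 0.55 and 0.25 outside its 208-nt window. NDUFA3 was at -2.09 with few counts and uneven replicates, at -0.81 and -3.54. NDUFB3 and NDUFS4 were at -0.80 and -0.68. Of 15 subunits of complexes III and IV, 1 rose and 4 fell, UQCRB, UQCRH (-1.61), COX7C (-0.71) and COX7A2 (-0.47). Their median window was 207 nt. Of all 635 genes with windows from 150 to under 300 nt, 21.4% fell. That lies near the 25.9% of complex I and the 26.7% of complexes III and IV. None of 21 SLC25 carriers of the inner membrane was called, and their medians were 0.14 and 0.07. SLC25A5, an ADP/ATP carrier, gave 0.19 and 0.36, and SLC25A3, the phosphate carrier, 0.14 and -0.30.

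Several families of secretory and membrane proteins had lower medians in replicate 2 than in replicate 1. The 86 solute carriers of the plasma membrane and organelles had medians of 0.04 in replicate 1 and -0.23 in replicate 2, the 50 receptors -0.00 and -0.33, and the 35 adhesion and matrix genes 0.06 and -0.38. Among the solute carriers 1 rose, SLC29A2, a nucleoside transporter, and 2 fell, SLC30A5 and SLC16A1. SLC16A1, a monocarboxylate transporter, went from 567 to 450 CPM and from 510 to 291, a fitted log2 enrichment of -0.57 over a window of 1454 nt. LAMC1, a laminin chain, fell by 0.38 on the log2 scale, at -0.24 and -0.52. No receptor was called. NOTCH2 gave -0.12 and -0.49, and PTPRF, a receptor phosphatase, gave 0.31 and -0.35. They were counted over 5057 and 5761 nt, and the sign of PTPRF changed between the replicates. The V-ATPase membrane sector had medians of 0.36 and 0.03 over 7 genes, with ATP6V0A1 at -0.18 and -0.02 and ATP6AP1 at 0.36 and 0.12, and no call.

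The translocon and insertion machinery had its falls mainly in long windows. Of 43 genes, 8 fell (18.6%, against 5.96% of all genes) and 1 rose. Of the 8 falls, 7 had a window of at least 600 nt, against 81 falls among all 4996 genes with such windows. SEC62, a partner of the Sec61 channel, went from 101 to 77.8 CPM and from 108 to 50.1, a fitted log2 enrichment of -0.71 (SE 0.14). STT3A, a catalytic subunit of oligosaccharyltransferase, went from 390 to 310 CPM and from 534 to 302 over 1928 nt, at -0.57, and CCDC47, of the multipass translocon, was at -0.56. OST4, a tiny subunit of oligosaccharyltransferase, was at -0.61. The 23 members with long windows had medians of -0.08 and -0.23. Of 27 ER folding enzymes CANX, the lectin chaperone calnexin, fell to a fitted -0.89 over 315 nt, from 433 to 218 CPM and from 654 to 380. HSP90B1 and FKBP9, a prolyl isomerase, rose.

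Zinc-finger and immediate early genes had more rises than falls. Of 118 zinc-finger genes, 9 rose (7.63%, against 2.02% of all genes) and 2 fell, with medians of 0.02 and 0.12. ZNF362 went from 35.8 to 56.7 CPM and from 63.7 to 86.9, a fitted log2 enrichment of 0.56, ZNF580 was at 0.53 and ZNF668 at 0.52. ZNF277 fell, at -1.41, with -0.05 and 0.37 outside. Of 22 immediate early genes 2 rose (9.09%, against 2.02% of all genes) and none fell. Of the 22, 15 lay above the median gene in both replicates and 0 below it in both. Among all 7162 genes 2142 lay above it in both and 2142 below it in both. The 2 were ZFP36L2, an mRNA decay factor, at 0.53 and 0.47, and DUSP1, a MAP kinase phosphatase, at 0.53 and 0.38. Most members of both families have long windows, 107 of the 118 zinc-finger genes and 14 of the 22 immediate early genes. The rises named here are rich in G and C bases (GC), with 62.6 to 74.8% GC in the coding sequence. Of all 1545 genes with at least 60% GC, 5.76% rose. The GC of the other members was not compared.

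In 23 of 51 families, a minority, both replicate medians lay on the same side of the all-gene medians. In the others they did not, but this count takes no account of how far the medians lay apart. The proteasome medians of 0.00999 and 0.0143 lay on opposite sides of the all-gene medians of 0.0063 and 0.0243. The receptor medians of -0.0049 and -0.33 lay on the same side. In the plot of family medians the families with low values in both replicates include histones, actin, ribosomal proteins, tRNA synthetases and complex I. In several secretory families, such as receptors, adhesion and solute carriers, the marks of the replicates lie apart, with replicate 2 the lower. The marks of cholesterol synthesis nearly coincide (0.0017 and -0.00036), and those of the SNAREs part the other way (-0.21 and 0.05). The 5688 genes in none of the families had 109 rises (1.92%) and 291 falls (5.12%), so the families together held more than their proportion of the falls. These shares were not matched for window length. The median window was 1115 nt outside the families, against 111 nt for the large ribosomal subunit and 231 nt for complex I.

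**Figure D4:**
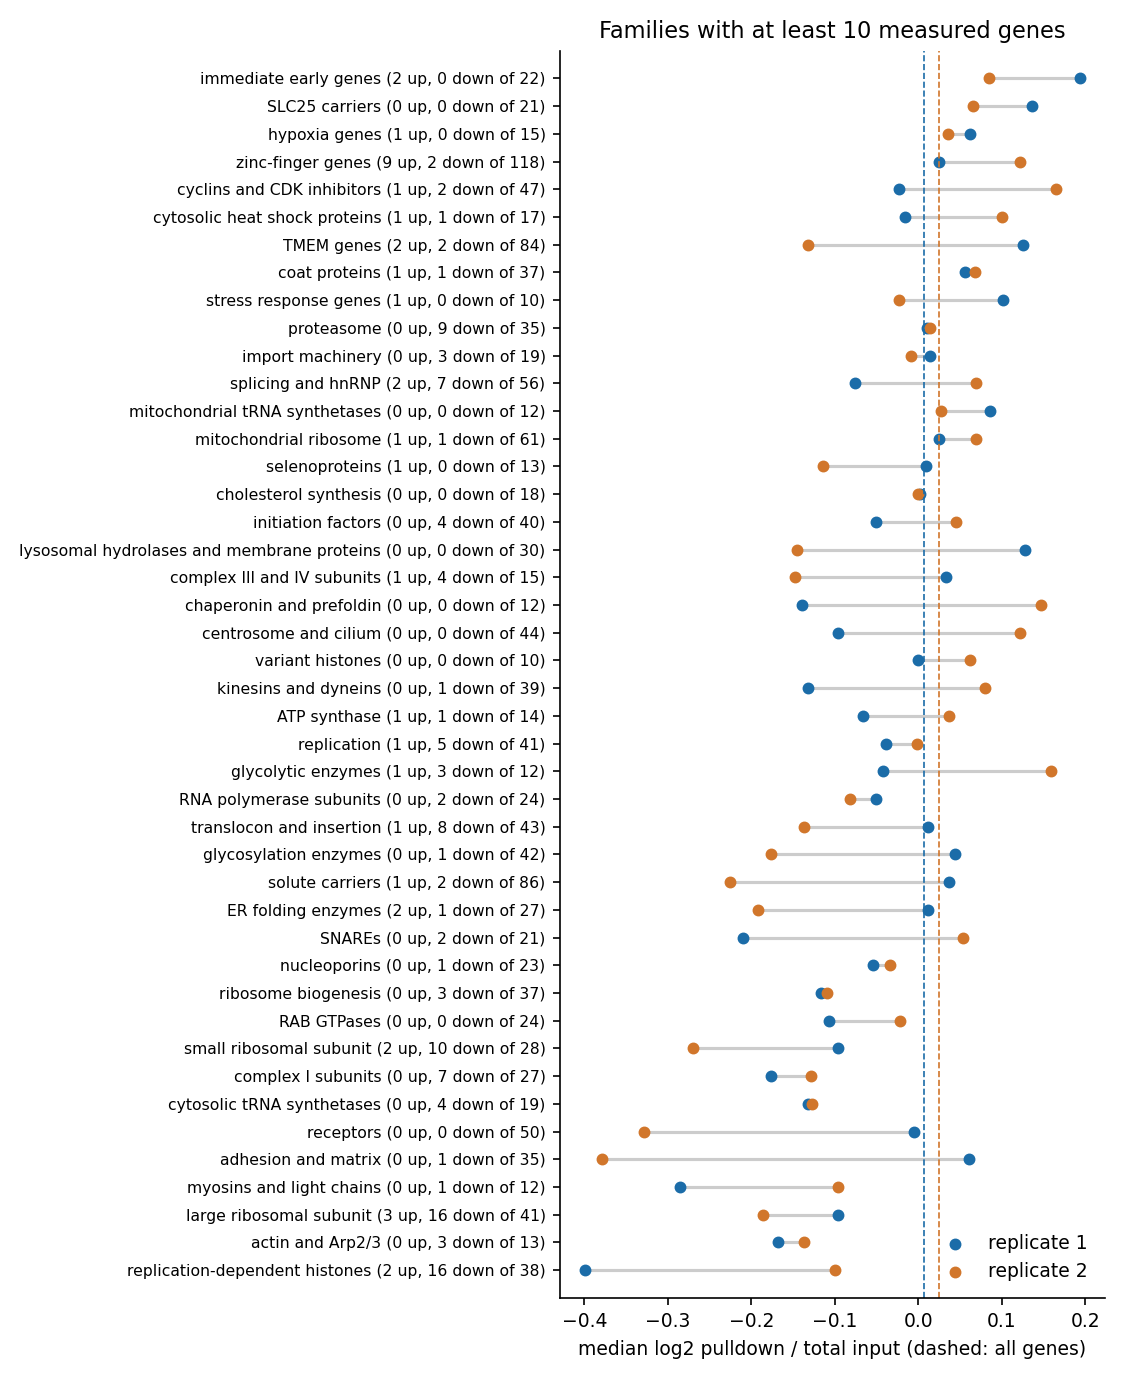
Median log2 pulldown over total input of each family with at least 10 measured genes in replicate 1 (blue) and replicate 2 (orange), with genes called and measured in brackets; dashed lines are the medians of all genes. In replicate 1 histones are lowest at -0.40 and immediate early genes highest at 0.19, while in replicate 2 adhesion and matrix genes are lowest at -0.38 and cyclins and CDK inhibitors highest at 0.16, and receptors, adhesion and solute carrier genes differ between replicates by more than 0.2.

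Genes with hydrophobic segments differed between replicates in some classes and not in others. Segments were 19-residue stretches of high hydropathy in the protein, counted in genes whose product is not mitochondrial. The 4511 genes with none had medians of -0.01 and 0.07, the 249 with 1 such segment in the first 40 residues, where a signal peptide lies, 0.09 and -0.09, the 616 with 2 to 4 segments 0.05 and -0.11, and the 271 with at least 5 segments 0.04 and -0.17. The 735 genes with 1 segment elsewhere had -0.01 and -0.02, with no such difference. The 63 genes with a segment in the last 30 residues, as in tail-anchored proteins, had -0.02 and 0.07. Sorted by their ER enrichment, 122 genes with the highest values had 0.16 in replicate 1 and -0.28 in replicate 2, with 88 of them on opposite sides of the medians, 3 rises and no fall. Genes with several segments were thus slightly low in the within-run pair, replicate 2, and slightly high in the pair from different runs.

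Base composition moved with replicate 1 only. Across 7156 genes Spearman's rho between the GC of the coding sequence and log2 enrichment was 0.39 in replicate 1 and -0.06 in replicate 2. In the 1545 genes with at least 60% GC the medians were 0.18 and 0.03, with 89 rises and 54 falls, so 89 of all 145 rises lay in this bin. In the 877 genes under 42% GC the medians were -0.10 and 0.12, with 3 rises and 49 falls. Whether the run of the replicate 1 fractions sets this was not tested. Short proteins were low in both replicates, with medians of -0.15 and -0.10 over 443 genes under 150 residues. Of these genes 117 fell (26.4%, against 5.96% of all genes) and 11 rose. Their median window was 240 nt, and 21.4% of all genes with windows from 150 to under 300 nt fell. Whether protein length mattered apart from window length was not tested.

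**Figure D5:**
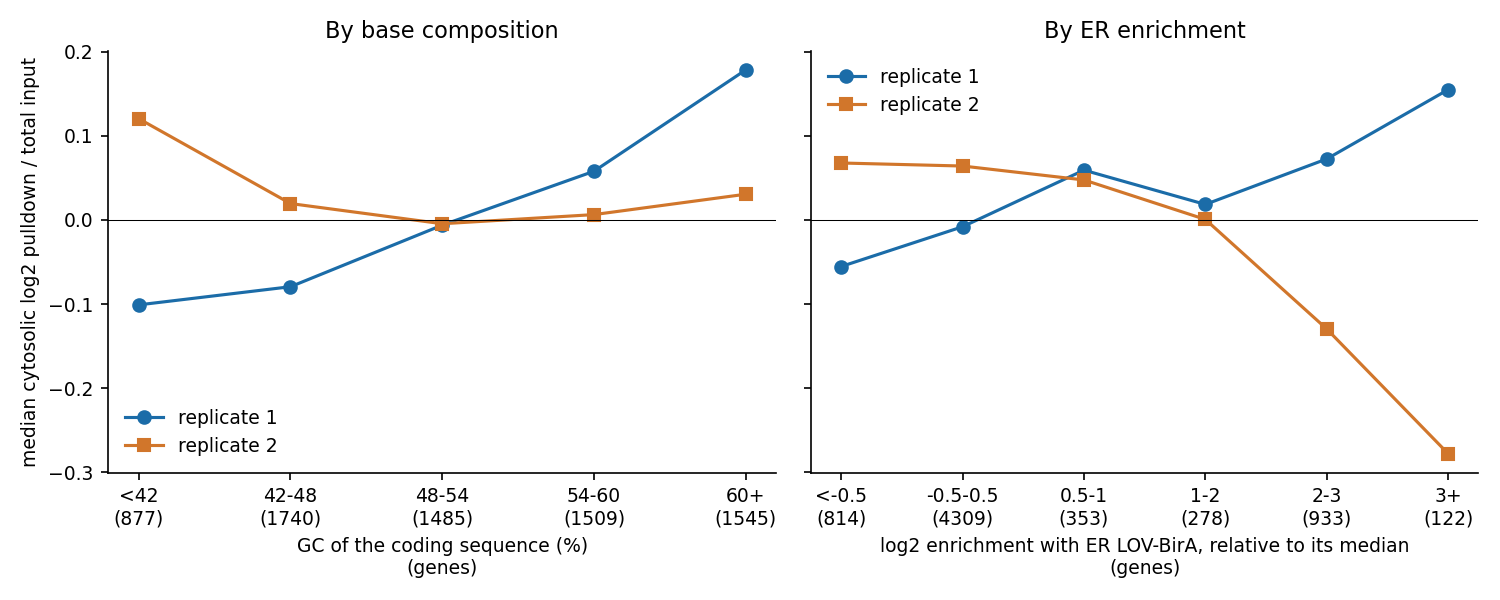
Median log2 pulldown over total input with cytosolic LOV-BirA in replicate 1 (blue) and replicate 2 (orange), by GC of the coding sequence (left) and by log2 enrichment with ER LOV-BirA relative to its median (right), with the number of genes under each bin. Replicate 1 climbs with GC from -0.10 to 0.18 while replicate 2 does not, and at the highest ER enrichment the replicates part to 0.16 and -0.28.

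Replicate 2 alone gave 220 rises and 514 falls of nuclear genes, and 39 of the 145 rises and 321 of the 427 falls were called in it. Replicate 1 alone gave 268 and 426 and held 101 and 326 of the calls. These fits leave 1 cytosol lysate and take its spread from the ER and mito lysates. With DESeq2 in place of edgeR 94 rises and 255 falls of nuclear genes were called.

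The enrichment with cytosolic LOV-BirA was tested against that at the ER and at mito. ER enrichment was higher than cytosolic enrichment in 1337 of 6809 genes (19.6%) and lower in 4290 (63.0%), with a median difference of -0.66 on the log2 scale, which TMM scaling moves to -0.03 with 1927 higher and 1480 lower. Mito enrichment was higher in 1069 of 6465 genes (16.5%) and lower in 2583 (40%), with a median difference of -0.36, and 1672 higher and 1222 lower under TMM scaling. None of the 7 mitochondrial genome genes differed at the ER, and 3 of the 5 tested at mito were less depleted there. RPL11 was at a fitted -3.42 at the ER, a difference of 0.34 that did not pass (adjusted p = 0.124) but was 0.96 and passed under TMM scaling (adjusted p = 0.000929), and at -1.58 at mito, a difference of 2.19 (adjusted p = 2.86e-06). TARS1 was less low at both, -2.01 at the ER and -0.94 at mito. MARVELD1 and TLN1 show genes that rose in the cytosolic pulldown and parted elsewhere. MARVELD1 was at 1.99 at the ER and -0.31 at mito, while TLN1 was at -1.48 and -1.02.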

How the data were processed

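Ribosome profiling of the 4 cytosol libraries was analysed with the 8 ER and mito libraries of the same design. The authors removed rRNA and tRNA reads with Bowtie, used TopHat to place reads on GRCh38, retained reads of 27 to 36 nt with 1 alignment and deposited estimated counts per gene region from plastid, which spreads each footprint over its central positions and masks positions that are not unique. The authors also deposited RPKM, whose denominator, all reads on annotated transcripts, served as an alternative scale. Estimated counts were rounded for the tests, and CPM used the totals of coding counts.

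Enrichment was fitted with edgeR 4.0.16 in R 4.3.3 (quasi-likelihood, two-sided) over 12 libraries, with 6 lysate terms and a pulldown effect per location. Pulldown and total input are paired because the study takes both from 1 lysate. DESeq2 1.42.0 was an alternative. Tables and figures used Python 3.11.15, pandas 2.3.3, numpy 2.4.6 and matplotlib 3.10.9. The fit was tested on simulated data. Windows were rebuilt from GENCODE 44 on GRCh38, while the authors counted on Ensembl 104, and counted as equal where the lengths matched exactly. Segments are 19 residues with a mean hydropathy of at least 1.6. Families were matched on gene symbols, and mitochondrial genes were taken from the study's lists. Members and lists were chosen with earlier results of these data known.

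Named genes are the measured genes of the mitochondrial genome, the 10 largest called rises and falls of nuclear genes, RPL29, the 3 called genes with the most footprints in each direction, and for each family described up to 4 called members or, without a call, the 2 with the most footprints. Entries naming several genes (1079 of 58849) and 14 RNA-seq files were not used. Depth limits the precision most in total input 2, and footprint counts cover counting error only.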

Additional observations from a re-analysis of the deposited data

Results flagged for a closer look

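Enrichment with cytosolic LOV-BirA was tested against ER and mito LOV-BirA for 34 named genes, namely those of the mitochondrial genome, the largest rises and falls, RPL29 and the called genes with the most footprints, in 60 tests, and 34 tests found a difference at an adjusted p below 0.05 over all genes (edgeR). Values are the log2 enrichment at the other location minus that in the cytosol. Of the 34, 29 kept their sign and call under TMM scaling. No explanation was tested.

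Genes that fell in the cytosolic pulldown were mostly less low at mito, where 213 of 381 nuclear falls were higher and 16 lower. At the ER 76 of 401 nuclear falls were higher and 64 lower, while 19.6% of all genes tested were higher and 63.0% lower. Under TMM scaling 254 of the 401 were higher and 8 lower, against 1927 and 1480 of all 6809 genes. At mito, MT-CYB differed by 1.49, MT-ND5 by 1.66 and MT-CO3 by 1.43 among the genes of the mitochondrial genome. Among nuclear falls the differences at mito were 2.19 for RPL11, 2.27 for TARS1, 2.22 for UQCRB, 1.56 for RSL1D1, 1.32 for SRP68, 1.16 for DDX3X, 1.03 for ATP6V1G1, 1.02 for H2AC17, 1.22 for RPS23, 0.74 for RPL29 and 0.31 for H2AC11. At the ER, TARS1 differed by 1.20 and H2AC11 by 0.94. These genes were chosen for low cytosolic values, which favours positive differences.

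Genes that rose in the cytosolic pulldown went both ways, and their choice favours negative differences. At the ER the difference was -1.23 for HBQ1, -1.304 for NDRG1, -1.297 for NARF, -1.36 for PRR36, -0.57 for C12orf57, -1.07 for RFLNB, -0.81 for C1QBP, -0.88 for CKB and -1.82 for TLN1. It was positive for 3 rises, 1.22 for MARVELD1, 1.01 for XKR8 and 0.90 for ADPGK, whose products are membrane or ER proteins. At mito it was -1.08 for MARVELD1, -1.43 for PRR36, -0.52 for CKB and -1.36 for TLN1, and 1.65 for C12orf57 and 0.72 for C1QBP. Under TMM scaling 5 of these differences did not pass, at the ER HBQ1 (-0.61, adjusted p = 0.0663), C1QBP (-0.19, adjusted p = 0.268), CKB (-0.26, adjusted p = 0.131) and C12orf57, which changed sign (0.06, adjusted p = 0.815), and at mito CKB (-0.17, adjusted p = 0.326).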

How the results depend on the processing

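The 145 rises and 427 falls kept their sign under every alternative of scale, tool, minimum, libraries and replicates in which they were tested (101 rises and 240 falls with the minimum 4 times as high), with counts over all exons the exception (9 rises and 99 falls changed sign). The number of rises was 2412 with all transcript reads as the scale, which moves the median of all genes to 0.25, 94 with DESeq2, 228 with no minimum, 38 with the 4 cytosol libraries alone, 287 with counts over all exons and 220 to 268 when a replicate was left out. Falls are given here for nuclear genes, a choice made after the data were seen; each gene of the mitochondrial genome that was tested (7 as reported) fell under every alternative. The number of nuclear falls, 420 as reported, was 249 with transcript reads as the scale, 255 with DESeq2 and 246 with a minimum 4 times as high, and 426 to 514 when a replicate was left out. Without the replicate block, that is without the pairing by lysate, 0 nuclear genes rose and 20 fell (edgeR; 239 genes at an unadjusted p below 0.05, against 1519 with it).

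Of the differences from the ER, those higher were 2088 with a minimum of 10 and 600 with the minimum 4 times as high, and those lower were 1480 with TMM, 1113 with DESeq2, 2380 with the higher minimum and 1362 without the pairing. Of the differences from mito, those higher were 1672 with TMM, 666 with the higher minimum and 202 without the pairing, and those lower were 1222 with TMM, 989 with DESeq2, 1571 with the higher minimum and 54 without the pairing.

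Among named genes, counts over all exons changed the sign of NARF (-0.10), HSP90B1 (-0.0084), C12orf57 (-0.032), RPL11 (0.0068), TARS1 (0.036), DDX3X (0.041), WDR48 (0.033), SRP68 (0.21), RSL1D1 (0.0063), QARS1 (0.21), RARS1 (0.10), PSMD12 (0.12), ARPC2 (0.033) and NDUFS7 (0.40). These counts add the exon positions outside the window. Uncalled genes near 0 also changed sign, PTPRF with transcript reads as the scale (0.21), with DESeq2 (0.0092) and when a replicate was left out (-0.35 to 0.31), ATP6V0A1 with transcript reads (0.13) and SLC25A3 with transcript reads (0.15) and when a replicate was left out (-0.30 to 0.14). Other causes were not tested. The 4 libraries limit small changes, since total input 2 held the fewest footprints.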

Other observations

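Some other families had a larger share of falls than the 5.96% of all genes with cytosolic LOV-BirA. Of 40 initiation factor genes 4 fell (10%) and none rose, with medians of -0.05 and 0.04, and of 12 glycolytic enzymes 3 fell (25%) and 1 rose. Of 56 splicing and hnRNP genes 7 fell (12.5%) and 2 rose, and of 41 replication genes 5 fell (12.2%) and 1 rose. These shares were not matched for window length. Initiation factors had a median window of 476.5 nt, and 8.68% of all genes from 300 to under 600 nt fell. Glycolytic enzymes had 275.5 nt, and 21.4% of all genes from 150 to under 300 nt fell. Windows of at least 600 nt held 0 of the 7 splicing falls and 2 of the 5 replication falls. The 61 proteins of the mitochondrial ribosome, which are made in the cytosol, had 1 rise and 1 fall and medians of 0.02 and 0.07. None of 44 centrosome and cilium genes, 24 RAB GTPases, 18 cholesterol synthesis genes or 30 lysosomal genes was called.

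Several of these had replicate medians of opposite sign. The 39 kinesins and dyneins had -0.13 and 0.08, the 21 SNAREs -0.21 and 0.05, the 12 chaperonin and prefoldin genes -0.14 and 0.15, and the 84 TMEM genes 0.12 and -0.13. The 12 myosins and light chains were low in both, at -0.28 and -0.10, with a median window of 3331 nt and 1 fall.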
